A study of Mus musculus with 8 samples.

Results

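The HoxB cluster is the run of homeobox genes Hoxb1 to Hoxb9 and Hoxb13 on mouse chromosome 11, and its 10 genes were taken by name from 26212 annotated genes. Trimethylation of histone H3 at lysine 4 (H3K4me3) was measured by ChIP-Seq, the sequencing of DNA that comes down with an antibody, in 4 kinds of cells with 1 H3K4me3 library and 1 library of input chromatin each, 8 libraries in all. Wild-type (wt) mESCs were the mouse embryonic stem cell line TC-1 and menin-null mESCs the Men1-ko line 3.2N, both of the 129S6/SvEvTac background, grown on irradiated feeder fibroblasts and then made feeder-free on gelatin. Pancreatic islet-like endocrine cells (PILECs) were derived in vitro from each line, so that each genotype rests on 1 cell line and each condition on 1 library. No spread between replicates can therefore be given. The 95% intervals below cover counting error only and compare libraries, not conditions. Read copies from PCR were not told apart from separate molecules. The comparisons also share libraries, since the H3K4me3 library of wt PILECs serves both the comparison of genotypes and that of stages.

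Hox genes encode transcription factors that give cells their position along the head-to-tail axis, and within a cluster the genes lie in the order in which they are used, those for the hindbrain at one end and those for the trunk and tail at the other. They are silent in embryonic stem cells, where their promoters carry small amounts of H3K4me3 together with the repressive mark H3K27me3, and they are switched on in an orderly way as cells differentiate. Menin, the product of Men1, is a subunit of the MLL1 and MLL2 complexes that place H3K4me3, and Hox genes are the classic targets of these complexes.

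The depth of the libraries limits what can be seen in mESCs. Between 2432377 and 3517028 H3K4me3 tags, as uniquely mapped reads are called here, came from mESCs and between 17682677 and 18773635 from PILECs, while the inputs held between 3744616 and 19016697 tags. Of the H3K4me3 tags, those within 1 kb of an annotated transcription start site (TSS) made up 43.5% and 51.4% in the mESCs (wt first, then menin-null) and 42.7% and 40.1% in the PILECs. Over exons 3 to 8 of Men1, the targeted gene, input chromatin of the wt cells gave 17 tags (mESCs) and 22 tags (PILECs), and both menin-null inputs gave 0, where a count of 0 allows up to 3 tags. The 8 markers of mESCs summed to 321.5 RPM of H3K4me3 (tags per 1000000 tags of the library) in wt mESCs and 410.6 in menin-null mESCs, and to 63.6 and 65.1 in the respective PILECs. Islet markers did not set the PILECs apart by H3K4me3. Of the 12 listed, 9 had 20 tags or more in wt PILECs and wt mESCs together. Of these 9, 4 were at least 2-fold lower and 0 at least 2-fold higher in wt PILECs, against 16% and 7.1% of all genes compared. The transcript and protein markers by which the paper assessed the PILECs were not used here. Summed H3K4me3 over the 12 islet markers was 57.6 RPM in wt and 62.8 in menin-null PILECs. The 5 neural markers summed to 131.6 and 132.2 RPM and the 6 fibroblast markers to 78.5 and 68.4 RPM in wt and menin-null PILECs. In wt and menin-null mESCs the islet markers summed to 90.4 and 113.7 RPM. The neural markers summed to 65.8 and 85.0 RPM there, and the fibroblast markers to 65.0 and 77.3 RPM. Sums over 4 muscle, 4 caudal and 3 liver markers were between 1.36 and 10.7 RPM in either PILEC library. No gene with 20 tags or more in the 7 lists (mESC, islet, fibroblast, muscle, neural, caudal and liver) was at least 2-fold higher or lower between the PILECs of the 2 genotypes, against 1.73% and 1.69% of all genes. Smaller differences whose interval excluded 0 lay between -0.94 (Nanog) and 0.58 (Thy1) on the log2 scale, menin-null over wt. Nanog, the fibroblast genes Col1a2, Col3a1 and Twist1 and the islet genes Mafa and Neurod1 were lower, and Thy1, Nkx2-2 and Nkx6-1 were higher. The part of other cell types in the HoxB values was not tested.

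All 10 genes lie on the plus strand of chromosome 11 in mm9, from Hoxb13 at 96055630 to the end of Hoxb1 at 96229570, so that transcription runs from the trunk end towards the hindbrain end. The 250 bases before the annotated 5′ end of 4 genes are shown, since these genes bound the range of the values that follow: Hoxb7 had the most H3K4me3 tags in wt PILECs, Hoxb1 the fewest, Hoxb8 was lower by the largest fold in menin-null PILECs around the starts used here, though not around its own 5′ end, and Hoxb13 was the only gene that was not lower. Capitals mark each CG dinucleotide. The stretches are chr11:96145321-96145570 for Hoxb7, chr11:96226816-96227065 for Hoxb1, chr11:96142969-96143218 for Hoxb8 and chr11:96055380-96055629 for Hoxb13, all on the plus strand and read from the mm9 genome.
Hoxb7: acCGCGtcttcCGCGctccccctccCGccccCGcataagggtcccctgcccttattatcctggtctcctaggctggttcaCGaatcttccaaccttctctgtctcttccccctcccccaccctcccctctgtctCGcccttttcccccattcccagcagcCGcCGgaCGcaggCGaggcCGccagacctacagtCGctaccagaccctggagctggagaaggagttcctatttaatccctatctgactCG
Hoxb1: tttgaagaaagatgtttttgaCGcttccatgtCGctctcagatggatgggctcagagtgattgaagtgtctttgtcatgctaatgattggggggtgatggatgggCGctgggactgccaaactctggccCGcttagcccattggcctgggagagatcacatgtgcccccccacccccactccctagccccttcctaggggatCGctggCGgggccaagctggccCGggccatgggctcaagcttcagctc
Hoxb8: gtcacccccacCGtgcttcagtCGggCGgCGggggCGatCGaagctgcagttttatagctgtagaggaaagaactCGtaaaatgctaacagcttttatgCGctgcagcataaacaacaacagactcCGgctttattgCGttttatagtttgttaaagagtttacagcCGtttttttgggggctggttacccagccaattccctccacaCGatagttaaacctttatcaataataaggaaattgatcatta
Hoxb13: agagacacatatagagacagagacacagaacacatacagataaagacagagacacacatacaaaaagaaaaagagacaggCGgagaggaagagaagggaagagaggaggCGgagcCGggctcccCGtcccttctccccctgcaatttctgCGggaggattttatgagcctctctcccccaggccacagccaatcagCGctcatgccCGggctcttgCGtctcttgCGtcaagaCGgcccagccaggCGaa

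These stretches held 15 CG dinucleotides before Hoxb7, 7 before Hoxb1, 12 before Hoxb8 and 11 before Hoxb13. Over all 10 members the number ranged from 3 before Hoxb4 to 16 before Hoxb9 with a median of 9, against a median of 7 over 26207 genes. The stretch before Hoxb7 lies within the gene Hoxb8, and 94 of its 250 bases are coding exon of Hoxb8. Motifs were searched on both strands, and matches of different motifs may overlap. The letters CCAAT were found before 7 of 10 members and before 34.6% of all genes, TATAAA before 1 member (Hoxb8, 2 matches) and 12.1%, and TGACAG before 1 member (Hoxb9) and 15% of all genes. For the half-sites through which retinoic acid receptors bind DNA, AGTTCA was found before 3 members (Hoxb3, Hoxb4 and Hoxb6) and 11.2% of all genes, and AGGTCA before 0 members and 12.9%. A pair of such half-sites in the same direction 5 bases apart was found before 0 members and 0.0153% of all genes. These matches describe letters in 250 bases only.

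For the counts, each tag was moved to the middle of a 250-bp fragment, and tags within 1 kb on either side of the start of a gene were counted and scaled to RPM. All windows have the same length, so RPM needs no correction for length between genes, but it is not corrected for input, which ranged from 2 tags at Hoxb2 to 17 at Hoxb1 in wt mESCs. Where a gene has several annotated starts, the start with the most H3K4me3 over the 4 libraries was used, a choice that the tags themselves made, and windows at the annotated start codon are given beside it where they differ. Signal per library cannot tell fewer cells with the mark from less of the mark per cell.

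Along the whole locus, which was taken with 5 kb on either side (chr11:96050630-96234570), H3K4me3 was much lower in menin-null than in wt PILECs and did not differ beyond counting error between the mESCs of the 2 genotypes. The 183941 bp held 401 and 549 H3K4me3 tags in the mESCs, wt first and menin-null after, and 6485 and 1486 in the PILECs. This is 165, 156, 345 and 84.0 RPM, and here and below 4 values without names follow this order. Input chromatin held 128, 123, 114 and 106 RPM over the same stretch. Wt PILECs thus stood 3.04-fold above their input, both mESC libraries stood 1.29- and 1.27-fold above theirs, and menin-null PILECs were at 0.793 of theirs.

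Between the genotypes, with menin-null over wt, the log2 ratio was -2.04 in PILECs (interval -2.12 to -1.96), which is 4.11-fold lower, and -0.08 in mESCs (interval -0.27 to 0.11). The ratio in PILECs minus that in mESCs was -1.96 (interval -2.16 to -1.76). Scaling by the tags near any TSS instead of all tags moves every mESC ratio of the genotypes by -0.24, and the locus then stood at -0.32 (interval -0.51 to -0.13) in mESCs. Between the stages the log2 ratio of PILECs over mESCs was 1.07 in wt cells (interval 0.92 to 1.22) and -0.89 in menin-null cells (interval -1.04 to -0.75).

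**Figure D1:**
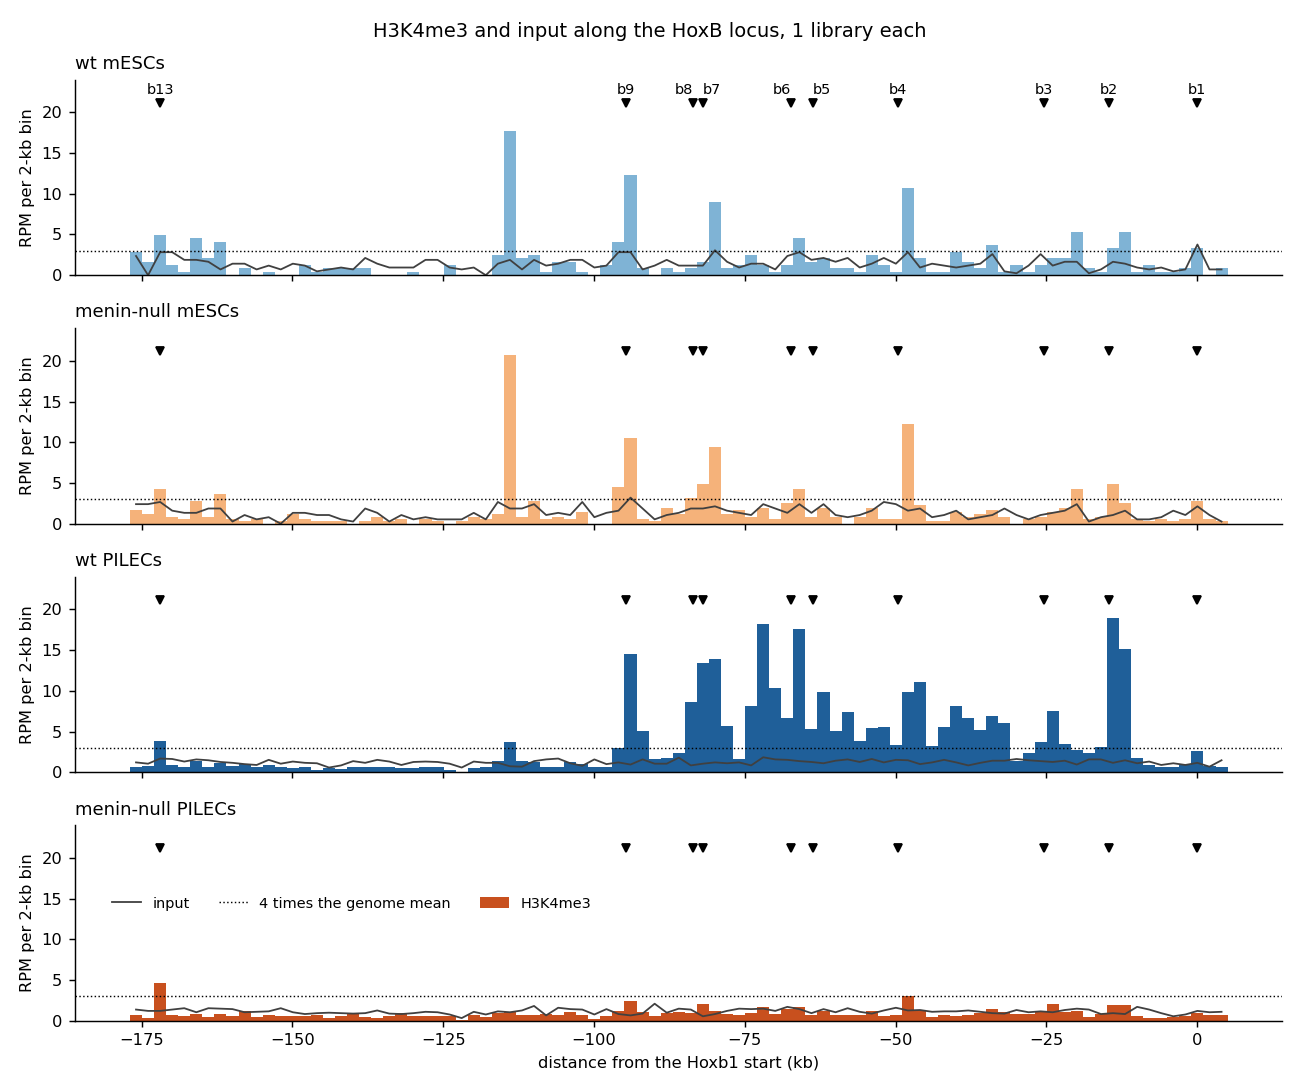
H3K4me3 (bars) and input (line) in RPM per 2-kb bin along the HoxB locus, plotted by the distance in kb from the Hoxb1 start, for 1 library of each of the 4 kinds of cells. Triangles mark the starts of the 10 genes and the dotted line is 4 times the genome mean, which 36 bins reach in wt PILECs and 1 bin, that of Hoxb13, in menin-null PILECs.

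Hoxb1 to Hoxb4 form the hindbrain end. Hoxb1, which sets the identity of a single hindbrain segment and keeps up its own expression, held 8 and 10 H3K4me3 tags in wt and menin-null mESCs and 46 and 17 in wt and menin-null PILECs, which is 3.29, 2.84, 2.45 and 0.961 RPM. Its window lies at a start 431 bp beyond the start codon and was the lowest of the 10 in wt PILECs by RPM. Against input the window of Hoxb4 was lower, at 1.86-fold, while that of Hoxb1 stood at 2.22-fold. Menin-null over wt, its log2 ratio was -1.35 in PILECs (interval -2.25 to -0.52). At the start codon it was -1.32 (interval -2.32 to -0.39).

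Hoxb2, which acts in the neighbouring hindbrain segments and in the facial motor nucleus, held 1, 5, 188 and 20 tags in the same order of libraries, or 0.411, 1.42, 10.01 and 1.13 RPM. It thus went with the highest genes of the cluster in wt PILECs, and its window lay near input in the other 3 libraries, which held 0.471, 0.801 and 0.993 RPM of input. In menin-null PILECs it was 8.85-fold lower than in wt PILECs, with the log2 ratio at -3.15 (interval -3.89 to -2.48). Among 20259 genes with 20 tags or more in the 2 libraries together, this was the 4th lowest ratio with 1 tag added to each count. Most of its wt PILEC tags, 86.7% (interval 81.0 to 91.2), lay downstream of the start, inside the gene.

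Hoxb3, which with its paralogue Hoxa3 patterns the hindbrain and the derivatives of the pharyngeal arches, held 5, 4, 115 and 23 tags, or 2.06, 1.14, 6.13 and 1.30 RPM. It has 4 annotated starts between 96184640 and 96205083, and the one used (Hoxb3-004, at 96202259) lies 3304 bp before the start codon. The log2 ratio in PILECs was -2.24 (interval -2.95 to -1.58) there and -1.66 (interval -2.46 to -0.92) at the start codon.

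Hoxb4, known for its use to expand blood stem cells, held 0, 3, 57 and 10 tags, or 0, 0.853, 3.04 and 0.566 RPM. A count of 0 in wt mESCs allows up to 3 tags, and the wt PILEC count was 2.46-fold higher than that limit. With the counting error of both libraries, the lower limit of the log2 ratio of wt PILECs over wt mESCs was 0.95. In PILECs the genotypes differed by a log2 ratio of -2.42 (interval -3.56 to -1.44). The start of Hoxb4 lies 2086 bp before its start codon, and the 2 windows give different accounts of the stages. Around the start codon there were 29, 45, 212 and 58 tags. Here the mark was already present in mESCs, the log2 ratio of wt PILECs over wt mESCs was -0.08 (interval -0.64 to 0.53), and that of menin-null over wt PILECs was -1.78 (interval -2.23 to -1.36).

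Hoxb5 to Hoxb8 lie in the middle of the cluster and serve the neck and trunk. Hoxb5, which acts in the neural crest that forms the nerves of the gut, held 4, 2, 98 and 15 tags, or 1.64, 0.569, 5.22 and 0.848 RPM. Its log2 ratio in PILECs was -2.62 (interval -3.51 to -1.83), and at the start codon -3.01 (interval -3.86 to -2.26). Unlike those of Hoxb2, most of its wt PILEC tags lay upstream of the start, since only 37.8% (interval 28.2 to 48.1) were downstream.

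Hoxb6, expressed in lateral plate and limb bud mesoderm, held 6, 13, 218 and 34 tags, or 2.47, 3.70, 11.6 and 1.92 RPM. In both mESC libraries this was near the input of 2.82 and 2.94 RPM. Its log2 ratio in PILECs was -2.59 (interval -3.16 to -2.07), which is 6.04-fold lower.

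Hoxb7, whose regulatory sequence is widely used to drive transgenes in the developing kidney duct, held 4, 18, 269 and 36 tags, or 1.64, 5.12, 14.3 and 2.04 RPM. This was the highest window of the cluster in wt PILECs, 14.3-fold above input, and the log2 ratio in PILECs was -2.82 (interval -3.36 to -2.31). The window lies around a start inside Hoxb8, 2471 bp before the start codon of Hoxb7, and overlaps the window of Hoxb8, so that the 2 genes share tags. Around the start codon there were 22, 33, 283 and 23 tags, and the log2 ratio in PILECs was -3.53 (interval -4.22 to -2.92).

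Hoxb8, which acts in blood progenitors and in microglia, held 2, 12, 203 and 16 tags, or 0.822, 3.41, 10.8 and 0.905 RPM. In menin-null PILECs it was 11.9-fold lower than in the wt cells, or -3.58 on the log2 scale (interval -4.41 to -2.84). With 1 tag added it had the lowest ratio of all 20259 genes tested, and its level in menin-null PILECs, 0.905 RPM, was close to the input of 0.938 RPM. This rests on the start used, which lies 238 bp before the start codon. With 1 tag added the ratio was -3.50 there, -3.39 at the start codon, where that of Hoxb7 was lower at -3.48, -2.65 with windows of 2 kb, and -2.06 around the 5′ end of the gene, where that of Hoxb6 was -3.24.

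Hoxb9 and Hoxb13 make up the tail end. Hoxb9, which patterns the thoracic skeleton, held 31, 45, 215 and 40 tags, or 12.7, 12.8, 11.5 and 2.26 RPM. It was the highest of the 10 windows in both mESC libraries, 4.51-fold above input in wt and 5.32-fold in menin-null cells. In wt cells its level did not differ between the stages beyond counting error, with a log2 ratio of -0.15 (interval -0.70 to 0.44). Over input, however, it stood at 10.9-fold in wt PILECs, where input was 1.05 RPM against 2.82 in wt mESCs. In menin-null cells it was 5.66-fold lower in PILECs than in mESCs, a log2 ratio of -2.50 (interval -3.15 to -1.85). Between the genotypes it stood at 0.01 in mESCs (interval -0.69 to 0.71) and at -2.34 in PILECs (interval -2.86 to -1.85).

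Hoxb13, which acts in the tail bud and the prostate and lies apart from the other genes, held 12, 15, 71 and 81 tags, or 4.93, 4.27, 3.78 and 4.58 RPM. Its 4 values lay close together, and it was the one member with a higher RPM in menin-null than in wt PILECs, but its log2 ratio of 0.28 had an interval that included 0 (-0.20 to 0.76). In menin-null PILECs it was the highest window of the cluster, 3.77-fold above input. The other stage and genotype ratios of Hoxb13 lay between -0.38 and 0.10, and each interval included 0.

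**Figure D2:**
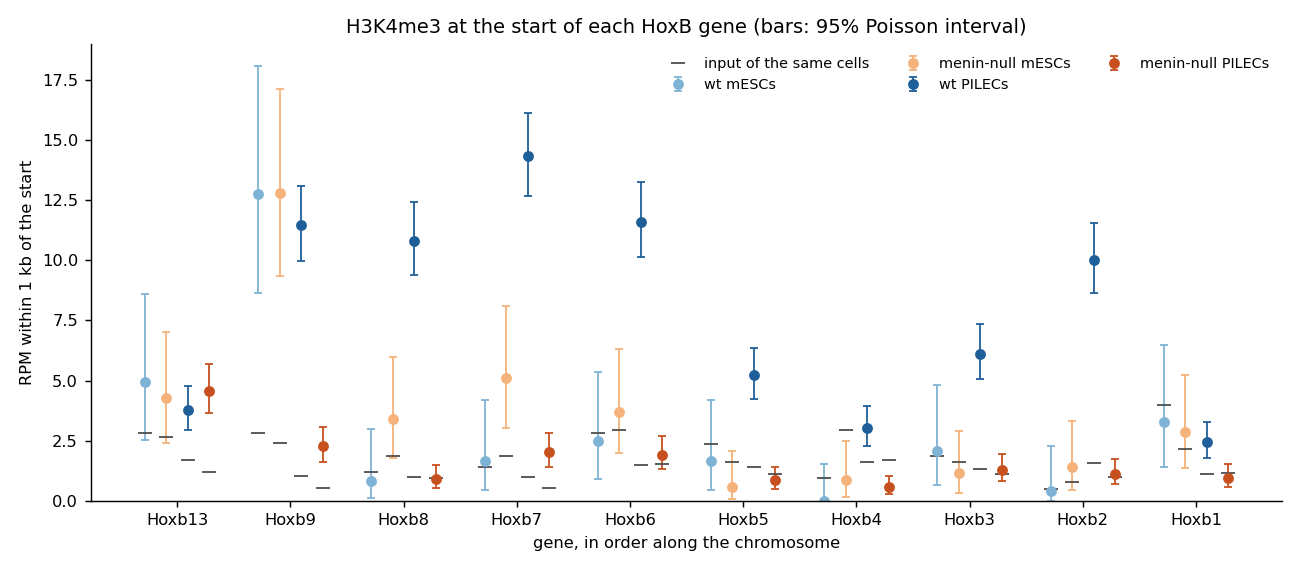
H3K4me3 in RPM within 1 kb of the start of each HoxB gene in the 4 libraries, with 95% Poisson intervals of the counts as bars and the input of the same cells as dashes, genes in their order along the chromosome. Wt PILECs stand highest at Hoxb2 to Hoxb8, both mESC libraries stand near wt PILECs at Hoxb9, and the 4 libraries overlap at Hoxb13.

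Counted together, 9 of the 10 members, all but Hoxb13, were at least 2-fold lower in menin-null than in wt PILECs with 1 tag added to each count, and each of these 9 intervals lay below 0. Of all 20259 genes with 20 tags or more, 343 were that much lower, which is 1.69%. The median over the 10 members was -2.43 (range -3.50 to 0.27), against -0.07 over all genes. Windows around the start codons gave 9 of 10 lower as well, with a median of -2.53.

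In mESCs, 3 members (Hoxb7, Hoxb9 and Hoxb13) had 20 tags or more in the 2 libraries together, and of these 0 were at least 2-fold lower in menin-null cells, against 0.908% of 15204 genes. Hoxb7 alone was at least 2-fold higher, against 0.934% of all genes, with 18 tags against 4 and a log2 ratio of 1.64 (interval 0.04 to 3.66). It met the minimum only through the menin-null library, in which it is high, so its count is a description only. The higher value was not seen around the start codon of Hoxb7, where the ratio was 0.05 (interval -0.77 to 0.90). Around the start codons 4 members could be compared (Hoxb4, Hoxb7, Hoxb9 and Hoxb13), and their log2 ratios with 1 tag added lay between 0.01 and 0.08. At the starts the median was -0.01 over the 3 members and 0.22 over all 15204 genes. Hoxb8, whose window shares tags with that of Hoxb7, had 2 tags in wt and 12 in menin-null mESCs at its start (interval of the log2 ratio -0.11 to 5.25) and 2 and 14 at its start codon (interval 0.15 to 5.46). Both windows of Hoxb8 were below the minimum of 20 tags. Hoxb1 to Hoxb6 held between 0 and 13 tags in either mESC library at the starts, and a difference in them was not detectable at this depth.

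**Figure D3:**
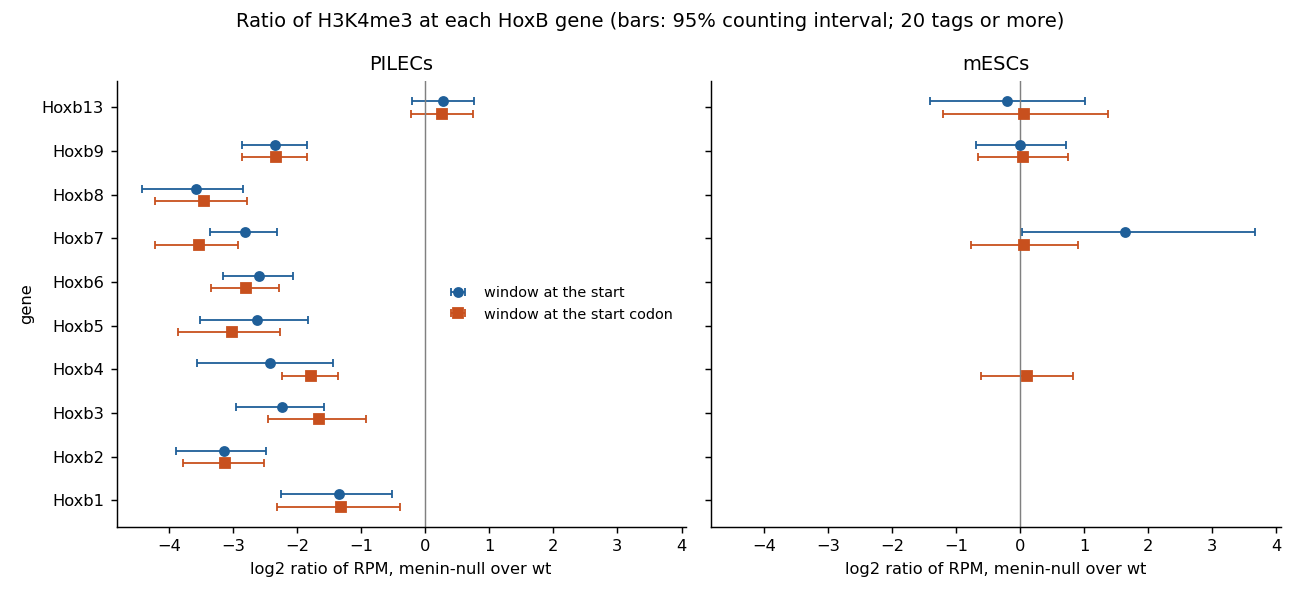
Log2 ratio of H3K4me3 RPM, menin-null over wt, at each HoxB gene in PILECs (left) and mESCs (right), for windows at the start (circles) and at the start codon (squares) with 20 tags or more, bars giving 95% counting intervals. In PILECs 9 genes lie below 0 and Hoxb13 does not, while in mESCs the intervals include 0 apart from the Hoxb7 window at the start.

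Between the stages in wt cells, 7 of 10 members (Hoxb2 to Hoxb8) were at least 2-fold higher in PILECs than in mESCs, against 7.1% of 16566 genes, and Hoxb1, Hoxb9 and Hoxb13 were not. The median of the 10 was 1.69, against -0.05 over all genes. Hoxb2 to Hoxb8 held 1, 5, 0, 4, 6, 4 and 2 tags in wt mESCs, in this order. They met the minimum for comparison only through the deeper wt PILEC library. The size of their folds is therefore rough, although each of these 7 intervals lay above 0. The share of all genes was not restricted to genes with such low mESC counts. The window mattered here. Around the start codons 4 of 10 were higher (Hoxb2, Hoxb5, Hoxb6 and Hoxb8) with a median of 0.62, and within 0.5 kb of the starts used 4 of 10 (Hoxb2, Hoxb4, Hoxb7 and Hoxb8) with a median of 0.69. With scaled input subtracted 8 were higher, Hoxb1 among them at 1.77. The wt mESC counts of Hoxb1, Hoxb2, Hoxb4, Hoxb5, Hoxb6 and Hoxb8 then fell below input and were set to 0. Their values set the wt PILEC count against the 1 added tag only and measure no fold. In menin-null cells 8 members could be compared between the stages, and 0 of them were at least 2-fold higher in PILECs, against 5.74% of 16793 genes. Of these 8, 5 were at least 2-fold lower (Hoxb1, Hoxb6, Hoxb7, Hoxb8 and Hoxb9), against 23.5% of the 16793 genes, with a median of -1.19 over the 8 and of -0.35 over all genes. Of these, Hoxb6 stood at the threshold, at -1.01 with 1 tag added. Hoxb6 was not 2-fold lower, which left 4 of 8, with 1 tag kept per position, no tag added or tags not moved. The same held with at most 2 mismatches, division by input or scaling by tags near any TSS. Around the start codons 10 members could be compared, and 6 were 2-fold lower, with a median of -1.50. Hoxb4 and Hoxb5 were among these 6 and Hoxb6 was not. Scaling by tags near any TSS moves every ratio of this comparison by 0.36. Around the 5′ ends of the genes 3 of the 8 were 2-fold lower (Hoxb1, Hoxb7 and Hoxb9), and within 0.5 kb of the starts 1 was 2-fold higher (Hoxb2). With windows of 2 kb 6 of the 8 were lower (Hoxb1, Hoxb2, Hoxb6, Hoxb7, Hoxb8 and Hoxb9). The same 6 were lower with scaled input subtracted, where the menin-null PILEC counts of Hoxb1 and Hoxb8 were set to 0.

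Set against input, all 10 windows stood above it beyond counting error in wt PILECs, by 1.86- to 14.3-fold with a median of 5.50. In menin-null PILECs this held for 3 windows, those of Hoxb7 (3.69-fold), Hoxb9 (4.10-fold) and Hoxb13 (3.77-fold), and the median was 1.16. In mESCs it held for Hoxb9 in wt cells, and for Hoxb7 (2.74-fold) and Hoxb9 in menin-null cells. Around the start codons the windows above input were Hoxb4, Hoxb7 and Hoxb9 in both mESC libraries, 9 of 10 in wt PILECs, where the interval of Hoxb1 included 0, and Hoxb4, Hoxb9 and Hoxb13 in menin-null PILECs. The share of all genes above their input was not counted, so these counts describe the members only. Input was scaled by all tags, and H3K4me3 away from the genes lay below it. Between Hoxb13 and Hoxb9, menin-null PILECs held 0.332 RPM per kb of H3K4me3 and 0.559 of input. A window near or below input therefore need not be without the mark. The ratios of the genes whose starts were not above input in menin-null PILECs (Hoxb1 to Hoxb6 and Hoxb8) depend on how input is treated. With scaled input subtracted and 1 tag added, menin-null over wt PILECs stood at -5.45 for Hoxb2, -4.26 for Hoxb3 and -4.55 for Hoxb6. Hoxb7 stood at -3.12 and Hoxb9 at -2.56. At Hoxb1, Hoxb4, Hoxb5 and Hoxb8 the menin-null count fell below its scaled input and was set to 0. Their values, such as -4.63 for Hoxb1, -6.09 for Hoxb5 and -7.45 for Hoxb8, set the wt count against the 1 added tag only and measure no fold.

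In order of level, the wt PILEC windows ran from Hoxb7 through Hoxb6, Hoxb9, Hoxb8, Hoxb2, Hoxb3, Hoxb5, Hoxb13 and Hoxb4 to Hoxb1. Of the 9 neighbouring pairs in this order, 3 differed beyond counting error, namely Hoxb7 above Hoxb6, Hoxb2 above Hoxb3 and Hoxb5 above Hoxb13. In menin-null PILECs the order began with Hoxb13, Hoxb9, Hoxb7 and Hoxb6 and ended with Hoxb5 and Hoxb4, and only the step from Hoxb13 to Hoxb9 exceeded counting error. In wt mESCs the one such step was from Hoxb9 to Hoxb13 and in menin-null mESCs from Hoxb9 to Hoxb7, both at the top of the order. In wt mESCs Hoxb1 came next after Hoxb9 and Hoxb13 by RPM, although it stood at 0.82 of its input there.

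The mark was also broad in wt PILECs. Bins of 2 kb were called marked where they held at least 4 times the genome mean of the library, which is 3.01 RPM. Of 91 bins 36, or 72 kb, were marked in wt PILECs, and 2 kb, the bin of Hoxb13, in menin-null PILECs. The bin with the Hoxb4 start codon held 53 tags in menin-null PILECs, just under the threshold of 53.3 tags. Wt mESCs had 28 kb and menin-null mESCs 24 kb, against 4 and 2 kb in their shallow inputs and 0 kb in both PILEC inputs. The bins marked in the mESC inputs were also marked by H3K4me3 in the same cells. In wt mESCs the Hoxb1 bin held 3.29 RPM of H3K4me3 and 3.77 RPM of input, so a marked mESC bin need not stand above input.

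The marked bins of wt PILECs formed 7 runs, of which the longest was an unbroken 44 kb (chr11:96152630-96196629) with 3175 tags that took in the starts of Hoxb6, Hoxb5 and Hoxb4. In mESCs the runs were short, 12 runs of at most 4 kb in wt and 9 of at most 6 kb in menin-null cells. Over all 91 bins of the locus, however they were marked, 47 were at least 2-fold lower and 1 at least 2-fold higher in menin-null than in wt PILECs with 1 tag added, and the median log2 ratio was -1.08 (range -3.61 to 1.20). The interval lay below 0 in 45 bins and above 0 in 0 bins. The 36 bins marked in wt PILECs were chosen for being high in the library they are compared with, and 35 of them were among those 2-fold lower.

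Bins marked in both mESC libraries numbered 10, and they held the bins of Hoxb2, Hoxb9 and Hoxb13 and those with the start codons of Hoxb4 and Hoxb7. A further 6 bins were marked in 1 mESC library only, 4 in wt and 2 in menin-null cells. The 2 marked in menin-null mESCs only lay 83.9 and 81.9 kb before the Hoxb1 start, over exons of Hoxb8 and, for the latter, also of Hoxb7, and held 2 and 4 tags in wt and 11 and 17 in menin-null mESCs, with intervals of the log2 ratio from -0.27 to 5.14 and from -0.06 to 3.59. Over all 91 bins, 0 intervals excluded 0 between the mESC genotypes. In PILECs 9 of the 10 bins marked in both mESC libraries lay below 0 in menin-null over wt, and 8 intervals did so. The bin with the Hoxb4 start codon held 26, 43, 185 and 53 tags, which is 10.7, 12.2, 9.85 and 2.997 RPM. Its level did not differ beyond counting error between wt PILECs and wt mESCs (log2 ratio -0.12, interval -0.71 to 0.53). In menin-null PILECs it was lower than in menin-null mESCs, by a log2 ratio of -2.03 (interval -2.64 to -1.41).

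The bin with the most tags in mESCs lay between Hoxb13 and Hoxb9, 114 kb before the Hoxb1 start, over the annotated gene Gm53, and held 43, 73, 70 and 18 tags, or 17.7, 20.8, 3.73 and 1.02 RPM. Chosen for its high level in mESCs, it had a log2 ratio of wt PILECs over wt mESCs of -2.25 (interval -2.81 to -1.66). In menin-null over wt PILECs it was -1.87 (interval -2.71 to -1.11).

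Segments between the windows of neighbouring genes held the mark as well. They leave out only the 1 start used per gene and take in other annotated starts. Among these are the 5′ ends of Hoxb6 and Hoxb3 and the starts of 0610040B09Rik, Gm11536 and Hoxb3os. The segments therefore do not show the mark apart from every start. The 1.64 kb between Hoxb6 and Hoxb5 were the densest in wt PILECs, with 221 tags or 7.18 RPM per kb, against 15 tags or 0.518 RPM per kb in menin-null PILECs. This was the lowest ratio of the segments, -3.79 (interval -4.66 to -3.04), and the menin-null value was near the 0.539 RPM per kb of its input. The 12.7 kb between Hoxb7 and Hoxb6 followed with 1119 and 115 tags, a log2 ratio of -3.20 (interval -3.49 to -2.92).

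Further segments towards the hindbrain end had ratios of -2.86 from Hoxb5 to Hoxb4, -2.44 from Hoxb4 to Hoxb3, -1.61 from Hoxb3 to Hoxb2 and -2.50 from Hoxb2 to Hoxb1, and that from Hoxb9 to Hoxb8 had -1.88. Each of these intervals lay below 0. The 75.2 kb between Hoxb13 and Hoxb9 stood at 0.418 RPM per kb in wt PILECs, below their input of 0.590, and had a ratio of -0.33 (interval -0.51 to -0.15). Beyond the outer genes the ratios were -0.31 and 0.32, and both intervals included 0. In mESCs the segments had ratios between -0.67 and 0.18, and each interval included 0.

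**Figure D4:**
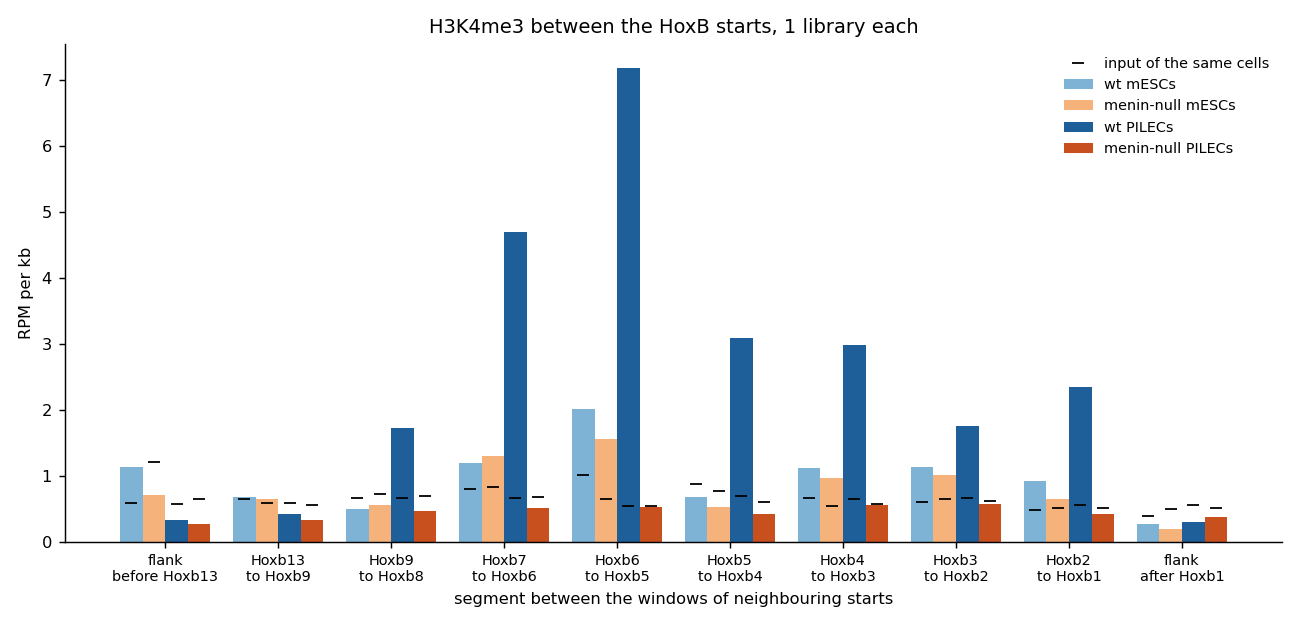
H3K4me3 density in RPM per kb (bars, from 0) in the segments between the windows of neighbouring HoxB starts and in the outer flanks, for the 4 libraries, with the input of the same cells as dashes. Wt PILECs exceed the other libraries from Hoxb9 to Hoxb1, up to 7.18 RPM per kb between Hoxb6 and Hoxb5, and lie below their input before Hoxb9 and after Hoxb1.

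The share of all H3K4me3 tags of the locus that lay outside the windows was 81.8% in wt (Clopper-Pearson interval 77.7 to 85.5) and 77.4% in menin-null mESCs (73.7 to 80.8). It was 78.2% in wt (77.2 to 79.2) and 80.4% in menin-null PILECs (78.2 to 82.3). Of the length, 89.4% lies outside the windows, and the input had 84.2%, 83.3%, 88.6% and 89.8% of its tags there. The shares of the 2 PILEC libraries thus lay close together while their RPM over the locus differed by 4.11-fold. They depend on what counts as a start, and with every annotated start of the locus they were 58.2% in wt and 62.8% in menin-null PILECs.

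Without Hoxb13 and the long stretch before Hoxb9, the 106800 bp from Hoxb9 to Hoxb1 held 259, 360, 5841 and 972 tags. Menin-null PILECs were then 5.66-fold lower than their wt counterpart, at -2.50 on the log2 scale (interval -2.60 to -2.40). In mESCs the ratio was -0.06 (interval -0.29 to 0.18), and in wt cells PILECs were 2.92-fold above mESCs.

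Other transcripts annotated inside the locus include antisense transcripts and 2 microRNAs, whose mature sequences from RefSeq match the mm9 plus strand once in the locus, at chr11:96178500-96178522 near Hoxb4 and chr11:96126501-96126522 before Hoxb9. They are shown since their starts lie among the Hox starts and since both are known to target Hox messages; capitals mark the seed, bases 2 to 8, and the seeds differ.
miR-10a-5p: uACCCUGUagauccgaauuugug
miR-196a-5p: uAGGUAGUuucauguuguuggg

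The window of Mir10a held 2, 6, 69 and 10 tags, with a log2 ratio of -2.70 in PILECs, and lies within 1 kb of the Hoxb4 start, whose tags it shares. Mir196a-1 held 0, 2, 13 and 7 tags and stood at -0.81 (interval -2.37 to 0.62). The antisense or intergenic transcripts Hoxb3os, 0610040B09Rik and Gm11536 held 200, 161 and 155 tags in wt PILECs and 24, 22 and 38 in menin-null PILECs, log2 ratios of -2.97, -2.79 and -1.94. Gm11538, next to Hoxb13, held 24 and 14 tags, and Gm53 67 and 19. ChIP tags carry no strand of transcription, so the signal of an antisense transcript cannot be told apart from that of the Hox gene it overlaps.

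Genes next to the cluster did not share its values. Of 27 genes with a start within 500 kb on either side, 0 were at least 2-fold lower in menin-null PILECs, 2 were higher (Gngt2 and Ttll6) against 1.73% of all genes, and the median was -0.03. Both nearest starts held few tags, Gm11535 on the Hoxb13 side 11 in wt and 16 in menin-null PILECs and Gm11529 on the Hoxb1 side 17 and 15. Summed over the 500 kb, the log2 ratio in PILECs was -0.20 before and -0.09 after the locus, against -2.04 within it.

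Against the 3 other Hox clusters, HoxB differed by more. In PILECs, menin-null over wt, the locus log2 ratio was -1.31 for HoxA (interval -1.40 to -1.21), -1.16 for HoxC (interval -1.27 to -1.06) and -1.16 for HoxD (interval -1.27 to -1.04), none of which overlapped the interval of HoxB. At the starts, 4 of 11 HoxA, 4 of 9 HoxC and 5 of 9 HoxD genes were at least 2-fold lower, with medians of -0.72, -0.65 and -1.001, against 9 of 10 HoxB genes and 1.69% of all genes. Hoxa3 has 2 entries in the annotation. The entry counted here stood at -0.72, and the other, left out of the counts, at -3.11. In mESCs the 3 loci stood at 0.07, -0.04 and -0.01, and each interval included 0.

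Between the stages in wt cells, the sum over the HoxB locus was higher in PILECs, while those over the other clusters were not. HoxA, HoxC and HoxD had log2 ratios of wt PILECs over wt mESCs of -0.10, -0.06 and -0.44, against 1.07 for HoxB, and their intervals did not overlap that of HoxB. Single genes of the other clusters were higher in wt PILECs too. At the starts, 2 of 11 HoxA genes (Hoxa6 and Hoxa9), 3 of 9 HoxC genes (Hoxc6, Hoxc8 and Hoxc9) and 1 of 9 HoxD genes (Hoxd3) were at least 2-fold higher, and 5, 3 and 6 were at least 2-fold lower, against 7 of 10 higher and 0 lower in HoxB, and 7.1% higher and 16% lower of all genes. The Hoxa3 entry left out of these counts was higher as well, at 1.75. The 7 HoxB genes counted as higher held between 0 and 6 tags in wt mESCs, and those of the other clusters between 2 and 8. These 7 met the minimum only through wt PILECs. Around the start codons, and within 0.5 kb of the starts used, 4 of 10 HoxB genes were higher. The other clusters were not counted in those windows, so the contrast in counts holds for the starts used only. Input over these loci was also lower in wt PILECs, its log2 ratios between the wt stages being -0.67, -0.50 and -0.74 against -0.17 at HoxB. Relative to input, HoxB went from 1.29-fold in wt mESCs to 3.04-fold in wt PILECs, HoxA from 2.11- to 3.13-fold, HoxC from 1.74- to 2.37-fold and HoxD from 1.87- to 2.31-fold. HoxB was therefore the lowest of the 4 over its input in wt mESCs and close to HoxA in wt PILECs.

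Of the genes whose products are known to act on or with HoxB, the 8 Cdx, retinoic acid receptor and Meis genes listed could all be compared between the stages in wt cells. At least 2-fold higher in PILECs were 2 of them, the Hox cofactors Meis1 (8.63 to 56.1 RPM) and Meis2 (3.29 to 37.3 RPM), against 7.1% of all genes. Cdx1, Cdx2 and Cdx4, which switch on the trunk part of the clusters, were at least 2-fold lower, against 16%, and the 3 receptor genes Rara, Rarb and Rarg were neither. Between the PILEC genotypes 7 of the 8 could be compared and 0 were 2-fold lower or higher, against 1.69% and 1.73% of all genes. The 7 genes of the menin complex tested (Mll1, Wbp7, Ash2l, Rbbp5, Wdr5, Dpy30 and Psip1) had 0 members past 2-fold between the genotypes in either stage, near the shares over all genes (1.69% lower and 1.73% higher in PILECs, 0.908% and 0.934% in mESCs), and in PILECs their ratios with 1 tag added lay between -0.56 and 0.10.

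The genes whose 4 levels lay nearest to the mean of the 10 HoxB genes were compared by the Euclidean distance of log2(RPM + 0.5) over the 4 H3K4me3 libraries, among 21461 genes. The nearest were Hoxc8 (distance 0.60), Hoxc9 (0.69) and Hoxa3 (0.74, for 1 of its 2 entries in the annotation). Then came Bche (0.79), Armc3 (0.80), Nap1l5 (0.81), 5730446D14Rik (0.81), Gm11536 (0.88), 4921504E06Rik (0.90) and Tmem29 (0.91). Gm11536 lies inside the HoxB locus, 1163 bp from the Hoxb3 start, and shares tags with the Hoxb3 window, so its likeness is in part built in. Hoxc9, for example, held 7, 11, 173 and 26 tags in the 4 libraries. The members themselves lay between 0.95 (Hoxb3) and 3.36 (Hoxb9) from their own mean, so the 10 nearest genes were closer to it than any HoxB gene. Likeness here rests on 4 values per gene.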

How the data were processed

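H3K4me3 ChIP-Seq and input libraries, 1 per condition and 8 in all, were grouped by their titles. The authors aligned 36-bp reads to mm9, kept uniquely mapped reads with at most 2 mismatches by their methods, and deposited 1 line per tag, so that a count is a number of tags without normalization. Between 1.04% and 1.81% of the deposited tags of a library list more mismatches and were kept. The authors also deposited a score per alignment, which was left unused. Duplicate tags made up 4.17% to 11.5% of the H3K4me3 libraries and were kept.

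Tags were moved 125 bp and counted in Python 3.11.15 (scipy 1.17.1, numpy 2.4.6, pandas 2.3.3), with pysam 0.24.0 for sequences and matplotlib 3.10.9 for plots. Starts came from an mm9 annotation (GENCODE) with 75530 distinct starts. The microRNA sequences came from a RefSeq table of build GRCm38.p6. Ratios of RPM have exact conditional binomial (Clopper-Pearson) limits, differences of ratios normal limits from the Poisson variance, and levels exact Poisson limits. Genes with 20 tags or more in the 2 libraries together were compared, and 1 tag was added for counts of genes past 2-fold. With 1 library per condition no test was made. The interval code was tested on simulated data.

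The members, gene lists and settings were chosen with earlier results of these data known. Named were the 10 members, transcripts inside the locus, the nearest flanking genes, the 10 genes most like the members, and, as counts or examples, the listed genes. Gngt2, Ttll6, and the regulators and bins described singly were named after their values were seen. Alternatives changed duplicates, scaling, input, tag position, mismatches, window, start, tags added, minimum, fold, locus, bins and threshold, and windows at the start codons were added after seeing the data, as were the values over all bins and the differences at start codons. The expression data of the study were not used here, and the list of HoxB regulators is not reported here in full.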

Additional observations from a re-analysis of the deposited data

Results flagged for a closer look

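The ratio of menin-null over wt cells differed between PILECs and mESCs for the whole HoxB locus, in that the interval of the difference of the 2 log2 ratios excluded 0. For the locus the difference was -1.96 (interval -2.16 to -1.76). Of the 3 genes with 20 tags or more in the 2 mESC libraries together, the interval excluded 0 for Hoxb7, at -4.45 (interval -6.09 to -2.81), and Hoxb9, at -2.35 (interval -3.17 to -1.53), and included 0 for Hoxb13. Hoxb7 reached this minimum through menin-null mESCs, with 18 tags against 4 in wt mESCs. Its normal limits are therefore rough, and its value is given as a description only. Around the start codons the difference was -3.59 (interval -4.58 to -2.60) for Hoxb7, -2.37 (interval -3.19 to -1.55) for Hoxb9 and -1.89 (interval -2.68 to -1.09) for Hoxb4. For Hoxb13 it was 0.21 there (interval -1.04 to 1.45). Below that minimum, with 6, 19 and 14 tags in the mESC libraries together, Hoxb2 gave -4.94, Hoxb6 -3.18 and Hoxb8 -5.63. Hoxb1 (-1.14), Hoxb3 (-1.38) and Hoxb5 (-1.09), also below it, had limits that included 0. At its start codon, with 10 tags, Hoxb5 gave -4.48 (interval -6.84 to -2.12), while Hoxb1 and Hoxb3 included 0 there too. The normal limits of Hoxb2, Hoxb6 and Hoxb8, which excluded 0, and those of Hoxb5 at its start codon are rough at such counts. The values are given as a description only. The difference was not particular to HoxB, since it was -1.37 for the HoxA, -1.13 for the HoxC and -1.15 for the HoxD locus, and each interval lay below 0. It was -0.36 (interval -0.46 to -0.27) over the 500 kb before the HoxB locus, and over the 500 kb after it -0.01 (interval -0.14 to 0.12). These intervals cover counting error in 4 libraries only, since each condition has 1 library.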

How the results depend on the processing

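The number of HoxB genes at least 2-fold lower in menin-null PILECs was 9 under every alternative but a fold of 3, which gave 8, and that in mESCs was 0 throughout, and the ratios of the members kept their direction in 110 of 110 values for menin-null over wt PILECs, 22 of 33 for the mESCs, 104 of 109 between the wt stages and 76 of 88 between the menin-null stages. Of 92 values for the locus, the counts of genes, the bins and the shares, 64 moved by less than their counting interval or within 1.5 times, and the others follow. Scaling by tags near any TSS gave locus ratios of -1.95 in PILECs, -0.32 in mESCs and -0.53 between the menin-null stages, and a difference of -1.63. Dividing by the input ratio gave -1.94 in PILECs, 1.24 between the wt stages and -0.67 between the menin-null stages. Subtracting scaled input gave 2.66 between the wt stages and no value where menin-null PILECs enter, since their count fell below input. From Hoxb9 to Hoxb1 the values were -2.50 in PILECs, 1.55 between the wt stages and -2.44 for the difference. At 8 times the genome mean the marked length was 8 kb in either mESC library, 40 kb in wt PILECs and 0 kb in menin-null PILECs. At 4 times the genome mean with PILECs scaled by tags near any TSS, menin-null PILECs had 4 kb.

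The share of tags outside the windows, for wt mESCs, menin-null mESCs, wt PILECs and menin-null PILECs, was 70.3%, 64.1%, 59.5% and 67.9% with windows of 2 kb, 55.6%, 53.4%, 58.2% and 62.8% with every annotated start, and 70.6%, 64.7%, 73.3% and 77.9% with windows at the start codons, which were chosen after seeing the data. The ratio of wt PILECs over wt mESCs at Hoxb4 turned to -0.12 at its start codon. Ratios whose own interval included 0 turned too, as at Hoxb1, from -0.56 to 1.77 with scaled input subtracted, and at Hoxb13, from -0.48 to 0.48 with windows of 0.5 kb. The 1.77 at Hoxb1 measures no fold, since its wt mESC count fell below input and was set to 0. The cause of these changes was not tested. No paired analysis was possible because each condition has 1 library, and for the same reason no library could be left out. Depth limits the mESC values, where most members held under 20 tags.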
